A study of Mus musculus with 6 samples.

Results

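Granins and the enzymes that process peptides in dense core vesicles were followed as 10 genes, Scg2, Scg3, Scg5, Chga, Chgb, Vgf, Pcsk1, Pcsk2, Cpe and Pam, each matched by symbol to 1 entry of the 23016 in the deposited table. Cortex was dissected at postnatal day 0 from 3 Fezf2 KO pups (Fezf2-/-) and 3 wild type pups (Fezf2+/+), all offspring of Fezf2+/- parents, and RNA of each brain made 1 library. The comparison asks which transcripts differ when Fezf2 is lost, a transcriptional regulator that deep-layer neurons of the cortex need for their identity. Litter m1 gave libraries 1 and 2 of each genotype, and litter m2 gave library 3. The sources used here give neither the strain nor the form of the mutant allele. The genes are related by function but were chosen by their genotype differences too, since the set was drawn up with the levels of Scg2 in these libraries known, so the genotype differences of its members are given as a description and support nothing further.

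Dense core vesicles carry neuropeptides, and the granins are acidic proteins that pack their cargo and are themselves cut into peptides. Precursors are cut by the prohormone convertases encoded by Pcsk1 and Pcsk2, trimmed at their ends by carboxypeptidase E and, for many peptides, amidated by the enzyme encoded by Pam. Neurons of the cortex hold far fewer such vesicles than endocrine cells do, and release them mostly outside the active zone.

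The libraries held 44978380 to 52872577 gene reads, and the values given are normalised read counts, that is reads divided by 1 size factor per library. Fezf2 itself lay at 1989, 1377 and 1533 in the Fezf2 KO libraries, against 5030, 5928 and 5396 in wild type, so each label fits its Fezf2 level. Pan-neuronal markers summed to 153349 to 156469 in Fezf2 KO and 151464 to 154286 in wild type libraries. The hypothalamic peptide genes Avp, Oxt and Hcrt stayed under 10 in every library, and Pomc ranged from 93.6 to 121 in Fezf2 KO and from 67.0 to 97.7 in wild type. In Fezf2 KO 1 the choroid plexus transcript Ttr reached 8950, against 65.6 and 68.0 in the other Fezf2 KO libraries. In wild type it ranged from 9.45 to 15.7. Of the 4 choroid plexus markers, Folr1 and Clic6 were also highest in Fezf2 KO 1 (283 and 227) but overlapped between the genotypes. Kl ranged from 14.1 to 19.5 in Fezf2 KO and from 13.1 to 19.2 in wild type. Fezf2 KO 1 was the lowest of the Fezf2 KO libraries for Chgb, Vgf, Pcsk1 and Cpe and the highest for Scg2, Scg3, Chga and Pam. The log2 ratios without it are given beside Scg2, Chgb, Vgf, Pcsk1 and Cpe, and beside some further genes.

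The stretch just before the start of transcription is shown for 4 members because some of them share a short sequence there, the cAMP response element, to which the factor CREB can bind. RefSeq windows of 250 bases upstream (build GRCm38.p6) were matched for 8 of the 10 members, and Vgf and Cpe were not matched. They are printed 5′ to 3′ on the gene's strand, chr1:79440027-79440276 (minus) for Scg2, chr2:132781392-132781641 (plus) for Chgb, chr13:75089607-75089856 (plus) for Pcsk1 and chr12:102554691-102554940 (plus) for Chga. Capitals mark TGACGTCA, the full element, and in Chga, which lacks it, the shorter core TGACG.
Scg2: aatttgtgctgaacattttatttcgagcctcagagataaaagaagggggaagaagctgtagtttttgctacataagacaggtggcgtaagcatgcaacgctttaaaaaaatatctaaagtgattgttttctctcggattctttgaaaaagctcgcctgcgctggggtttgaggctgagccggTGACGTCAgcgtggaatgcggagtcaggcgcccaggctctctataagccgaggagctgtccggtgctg
Chgb: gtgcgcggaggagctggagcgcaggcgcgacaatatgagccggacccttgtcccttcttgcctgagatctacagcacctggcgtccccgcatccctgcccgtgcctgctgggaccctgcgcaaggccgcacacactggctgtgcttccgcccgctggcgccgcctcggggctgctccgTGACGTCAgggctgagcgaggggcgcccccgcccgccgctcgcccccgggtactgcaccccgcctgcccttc
Pcsk1: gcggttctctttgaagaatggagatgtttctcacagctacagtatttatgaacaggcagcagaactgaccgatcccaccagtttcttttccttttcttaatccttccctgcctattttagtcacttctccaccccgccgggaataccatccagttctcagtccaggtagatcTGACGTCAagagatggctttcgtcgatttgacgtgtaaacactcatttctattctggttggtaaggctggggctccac
Chga: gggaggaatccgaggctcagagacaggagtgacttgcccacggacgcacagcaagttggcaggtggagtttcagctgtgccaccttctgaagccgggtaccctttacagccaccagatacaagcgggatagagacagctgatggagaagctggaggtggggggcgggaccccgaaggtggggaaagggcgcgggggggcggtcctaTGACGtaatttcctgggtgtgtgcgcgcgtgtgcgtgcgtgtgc

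The full element lay 68 to 61 bases before the start in Scg2, 72 to 65 in Chgb and 78 to 71 in Pcsk1, so 3 of the 8 members held it, at nearly the same distance. Among 10288 genes tested here that have such a window, 3.06% held it. The core TGACG, searched on both strands as TGACG or CGTCA and counted also inside the full element, was found in 7 of the 8 members and in 29.5% of those genes. Pam held neither. The AP-1 letters TGAGTCA, searched on both strands, were in 0 of the 8 members and in 3.73% of the genes. These are matches of letters and not measured binding sites. Of the genes that hold the full element, Scg2 rose in Fezf2 KO cortex, and the log2 ratios of Chgb (-0.14) and Pcsk1 (0.24) did not pass limma's test over all genes.

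**Figure D1:**
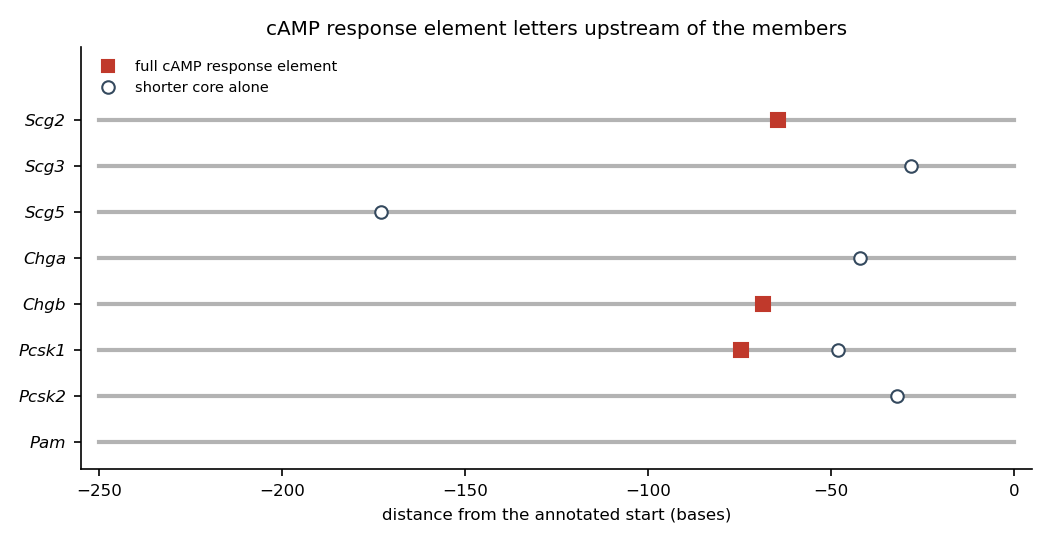
The 250 bases upstream of 8 members, drawn as distance in bases from the annotated start, with full cAMP response elements as red squares and the shorter core where it stands alone as open circles. The full element sits at nearly the same distance in Scg2, Chgb and Pcsk1, and Pam has no mark.

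Among the granins, Scg2 was the member that rose. It encodes secretogranin II, the precursor of the peptide secretoneurin. Scg2 stood at 6921, 4871 and 4934 in the Fezf2 KO libraries (replicates 1, 2 and 3), and at 1612, 1941 and 2533 in those of wild type. The genotypes did not overlap, and the lowest Fezf2 KO value was well above the highest wild type value. The means were 5575 ± 1166 and 2029 ± 467 (SD, n = 3 in each genotype), and the log2 ratio of Fezf2 KO to wild type on the value plus 1 was 1.46 (SE 0.18, limma adjusted p = 0.0111 over all 17557 genes tested). The 95% interval ran from 2.07-fold to 3.68-fold higher. By size of log2 ratio the gene ranked 41 of 17557.

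All 10 members passed the filter on low values, and 1 of them, Scg2, passed the test at an adjusted p under 0.05, where 0.712% of all genes tested did. The median log2 ratio of the 10 members was 0.05, and over all genes it was 0.00. Fezf2 KO and wild type libraries did not overlap in 4 members, with Scg2, Pcsk2 and Pam above and Chgb below, as in 14.5% of all genes. Since the members were chosen with this contrast known, nothing is read from these shares.

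**Figure D2:**
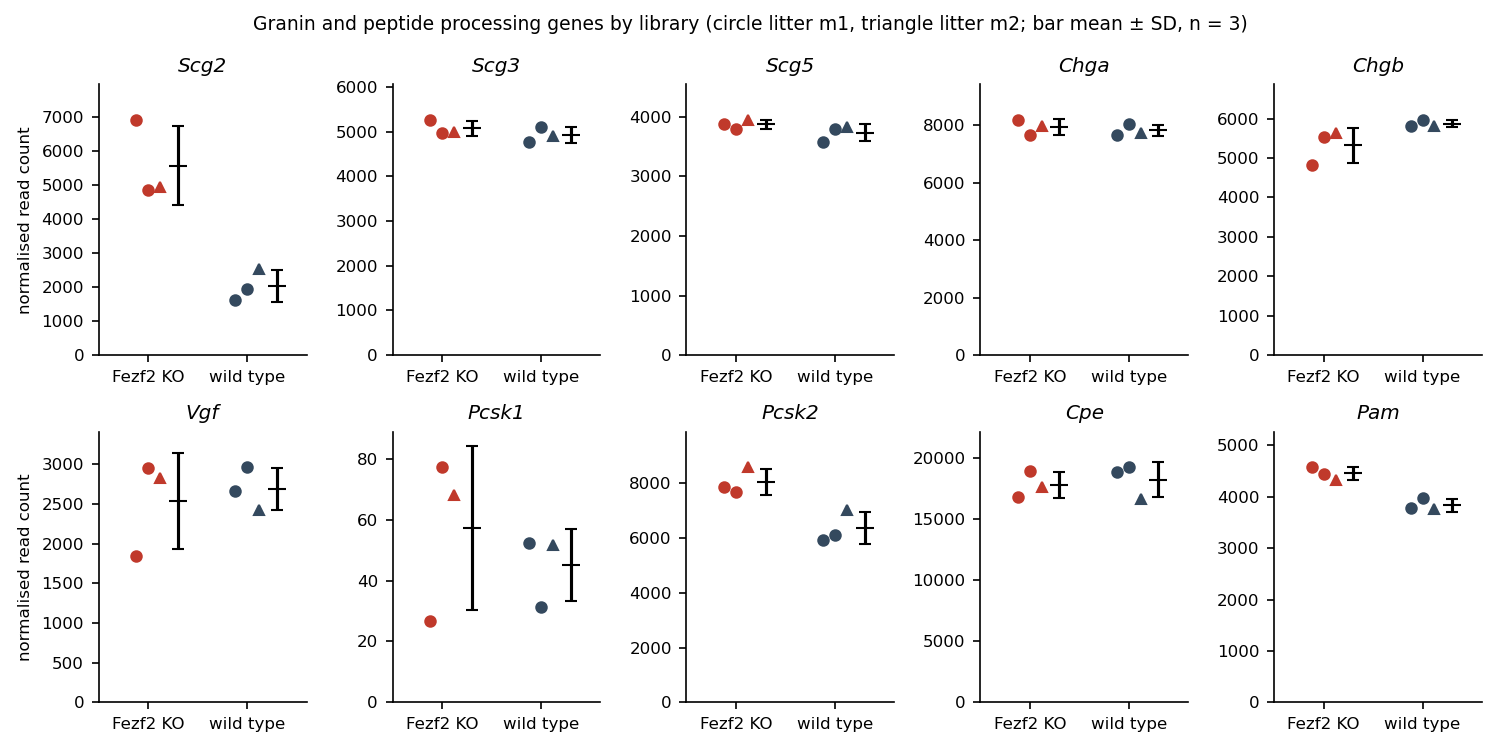
Normalised read count of each member in each library, Fezf2 KO in red on the left and wild type in grey on the right, with litter m1 as circles, litter m2 as triangles and the mean ± SD (n = 3) as a bar. Scg2 lies between 4871 and 6921 in Fezf2 KO and between 1612 and 2533 in wild type, while Chga, Scg3 and Scg5 are nearly level.

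The size of the Scg2 difference varied with the library. Litter m1 alone gave a log2 ratio of 1.71 (limma adjusted p = 0.0595, 2 libraries per genotype), and litter m2, with 1 library per genotype and no test, gave 0.96. Leaving out 1 library at a time gave 1.30 to 1.64 (limma adjusted p 0.0147 to 0.046). The value without Fezf2 KO 1, the library with the most Ttr, was 1.30 (limma adjusted p = 0.0222). With all libraries limma called 0 of the 4 choroid plexus markers. Without Fezf2 KO 1, Ttr passed as higher in Fezf2 KO (log2 2.33, limma adjusted p = 0.0173). Markers of striatal neurons, which lie under the cortex, summed over 13 genes to 5822, 11763 and 7216 in the Fezf2 KO libraries. In those of wild type they summed to 17831, 15349 and 13685. Of the 13, limma called 1 lower, Ppp1r1b, and 11 had an unadjusted p under 0.05, where 9.03% of all genes did. The genotypes did not overlap in 7, all with Fezf2 KO below, as in 14.5% of all genes in either direction. The median log2 ratio of the 13 was -1.32, against 0.00 over all genes. Scg2 was highest in Fezf2 KO 1, where the striatal sum was lowest. With the striatal mean as a covariate, which differs between the genotypes, the log2 ratio was 1.04 and the call was lost (limma adjusted p = 0.161). With that covariate 4 of the 10 members had an unadjusted p under 0.05 in limma, where 7.97% of all genes did. In litter m1 alone 3 of the 10 did, where 6.9% of all genes did. The members were chosen with the contrast known, so nothing is read from these shares either.

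Markers of GABAergic interneurons, many of which make peptides, summed over 13 genes to 50430, 55551 and 49487 in Fezf2 KO libraries, against 45669, 44633 and 44366 in wild type. Of these 13, Npy, which is also among the cargo genes, and Sp8 rose and 0 fell. Over all genes, limma called 0.404% higher. An unadjusted p under 0.05 was found in limma for 4 of the 13, against 9.03% of all genes. The genotypes did not overlap in 4, all with Fezf2 KO above, against 14.5% of all genes in either direction. With the interneuron mean as a covariate the log2 ratio of Scg2 was 1.65 (limma adjusted p = 0.0069). Cortical glutamatergic markers, 7 genes, summed to 90430 to 102582 in Fezf2 KO and 87310 to 89413 in wild type. Of the 7, limma called 1 higher, Slc17a6, and 0 lower, where 0.404% of all genes were called higher. Of 6 immediate early genes, which neurons induce with activity, limma called Egr2 higher and 0 lower. An unadjusted p under 0.05 was found for 3, where 9.03% of all genes had one. Egr2 stood at 175, 205 and 179 in Fezf2 KO, against 77.7, 98.6 and 85.9 in wild type (limma adjusted p = 0.0137). Junb (log2 0.46) and Egr1 (log2 0.49) did not pass in limma (adjusted p = 0.222 and 0.431), and DESeq2 called Junb (adjusted p = 0.0257). Fos (log2 0.40), Arc (log2 -0.21) and Npas4 (log2 -0.16) overlapped between the genotypes. Fos stood at 102, 199 and 104 in Fezf2 KO, against 102, 104 and 86.8 in wild type. The 6 summed to 2847, 3904 and 3524 in Fezf2 KO libraries, against 2668, 2481 and 2447 in wild type, with Egr1 and Junb making up most of each sum. Among the Fezf2 KO libraries the sum was lowest in Fezf2 KO 1, where Scg2 was highest. Of 5 hippocampal markers 0 passed in limma, and 2 had an unadjusted p under 0.05, where 9.03% of all genes did. DESeq2 called 1 of the 5, Fibcd1, where it called 2.3% of all genes. Fibcd1 stood at 1230, 2062 and 2220 in Fezf2 KO, against 827, 1116 and 725 in wild type (limma adjusted p = 0.133, or 0.0238 without Fezf2 KO 1). The log2 ratios of the others were 0.21 (Prox1), 0.22 (Zbtb20), -0.06 (Lct) and -0.46 (Wfs1). The part of these genes and markers in the Scg2 difference was not tested. In whole tissue, more cells that express Scg2 and more Scg2 RNA per cell cannot be told apart.

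The chromogranins did not follow. Chga, which encodes chromogranin A, the classical marker of dense core vesicles, stood at 8194, 7662 and 7989 in Fezf2 KO, against 7680, 8053 and 7750 in wild type. Its libraries overlapped fully, and the 95% interval of the ratio was 0.944 to 1.09. Chgb, chromogranin B, stood at 4815, 5522 and 5643 in Fezf2 KO, against 5814, 5970 and 5820 in wild type. All Fezf2 KO values lay below the wild type ones, with Fezf2 KO 1 the farthest, but the difference did not pass (log2 -0.14, SE 0.07, limma adjusted p = 0.579). The interval for Chgb was 0.816 to 1.01, and without Fezf2 KO 1 its log2 ratio was -0.07.

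Scg3 encodes secretogranin III, which tethers other granins to the vesicle membrane. It ranged from 4972 to 5263 in Fezf2 KO and from 4761 to 5106 in wild type libraries (ratio 1.03, 95% interval 0.952 to 1.12). Scg5 encodes the chaperone that the convertase PC2 needs to mature. It ranged from 3801 to 3951 in Fezf2 KO and from 3572 to 3836 in wild type (ratio 1.04, interval 0.958 to 1.13). For both genes the groups overlapped and the intervals leave room for differences of under 1.13-fold in either direction.

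Vgf, a granin-like precursor induced by neurotrophins, varied more among the Fezf2 KO libraries than between genotypes. It stood at 1849, 2947 and 2825 in Fezf2 KO, against 2669, 2965 and 2430 in wild type. Fezf2 KO 1 alone was low, and the other Fezf2 KO libraries lay inside the wild type range. The log2 ratio was -0.11 (SE 0.17, limma adjusted p = 0.932) with all libraries and 0.11 without Fezf2 KO 1, so its direction rests on that library. The interval, 0.711 to 1.21, is wide beside those of Chga, Scg3 and Scg5.

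Divided by merged exon length, the 6 granins Chga, Scg5, Chgb, Scg3, Vgf and Scg2 together gave 14583 ± 329 normalised reads per kb in Fezf2 KO and 13175 ± 426 in wild type (SD, n = 3 each). Without Scg2 the sums were 12366 ± 236 in Fezf2 KO and 12369 ± 352 in wild type. Scg2 made up 18.5%, 13.6% and 13.5% of the granin sum in the Fezf2 KO libraries, and 5.05%, 5.71% and 7.57% in those of wild type. The sums of the remaining granins differed by less than their spread.

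**Figure D3:**
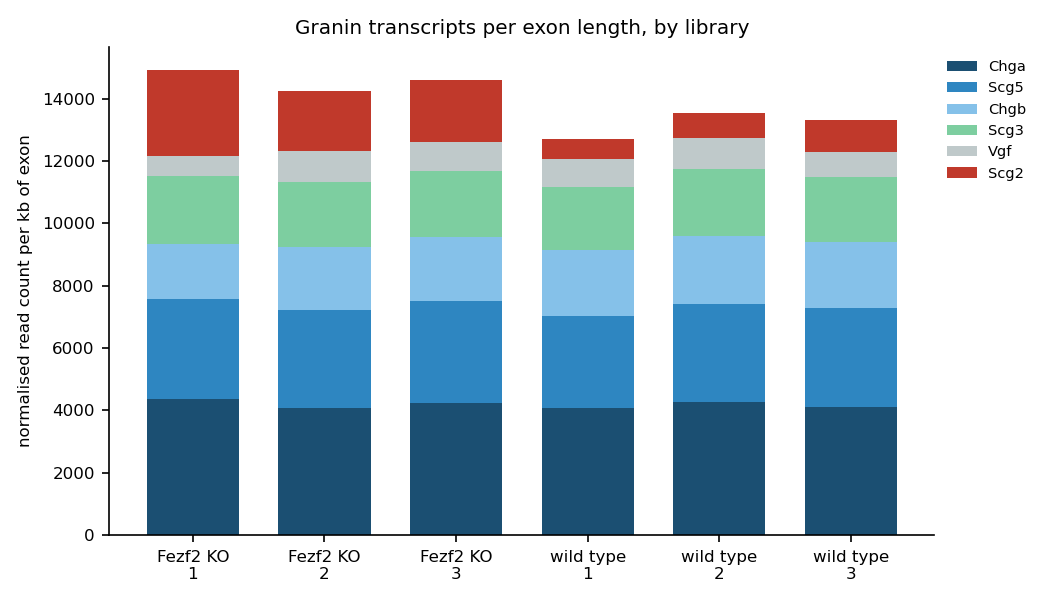
Normalised read count per kb of merged exon for the 6 granins, stacked by library, with Fezf2 KO on the left and wild type on the right and Scg2 as the red top segment. The stack under the red segment stands between 12059 and 12751 in all 6 libraries, and the red segment is taller in each Fezf2 KO library.

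Scg2 also changed its place in the order of levels per kb. In Fezf2 KO cortex Scg2, at 2217 ± 464 per kb, stood in place 4 of the 10 members, with Scg3 (2129 ± 68.6) and Chgb (1944 ± 163) within its spread. In wild type cortex it stood in place 9, at 807 ± 186 per kb, within its spread of Vgf (911 ± 90.8) and Pam (935 ± 30.5). Cpe, Chga and Scg5 were the highest 3 in both genotypes and Pcsk1 was the lowest. Cpe reached 8401 ± 500 per kb in Fezf2 KO and 8609 ± 672 in wild type. Lengths are from a later annotation than the one the reads were counted on, so orders between genes are approximate.

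Of the cleaving enzymes, Pcsk2 was the abundant convertase and Pcsk1 lay at percentile 15.3 of the mean levels of all genes tested. Pcsk2 stood at 7846, 7674 and 8584 in Fezf2 KO, against 5937, 6110 and 7033 in wild type. The genotypes did not overlap, and in each of them the litter m2 library was the highest. The log2 ratio was 0.34 (SE 0.07, limma adjusted p = 0.114), which did not pass. It did pass with litter as a block in limma (adjusted p = 0.0186, where 0.786% of all genes were called) and with DESeq2 on the recovered reads (adjusted p = 0.00293, where 2.3% were called), and its unadjusted 95% interval was 1.12 to 1.42.

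The Pcsk2 locus also holds an assembled transcript named as antisense to Pcsk2, with 179, 178 and 208 in Fezf2 KO, against 150, 147 and 154 in wild type. Those values also stood higher in every Fezf2 KO library (log2 0.32, limma adjusted p = 0.429). The genotypes did not overlap in 14.5% of all genes, in either direction. Another assembled entry named for Pcsk2, linc-Pcsk2-BP, stood at 677, 625 and 739 in Fezf2 KO, against 528, 535 and 649 in wild type. Its genotypes overlapped (log2 0.26, limma adjusted p = 0.526). The sources used here do not say whether the libraries kept strand, so reads of overlapping entries cannot be told apart.

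Pcsk1, whose product makes the early cuts in many precursors, stood at 26.8, 77.2 and 68.0 in Fezf2 KO, against 52.4, 31.4 and 51.6 in wild type. Fezf2 KO 1 was the lowest library of all and the other Fezf2 KO libraries were the highest. The interval of the ratio ran from 0.626 to 2.23, the widest of the members. Without Fezf2 KO 1 the log2 ratio was 0.71 (SE 0.26, limma adjusted p = 0.477), against 0.24 (SE 0.40) with all libraries.

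Carboxypeptidase E, encoded by Cpe, removes the basic residues that the convertases leave and was the most abundant member. Cpe stood at 16820, 18919 and 17619 in Fezf2 KO, against 18826, 19250 and 16600 in wild type. The groups overlapped (ratio 0.977, 95% interval 0.878 to 1.09), and the log2 ratio was -0.03 with all libraries and 0.0055 without Fezf2 KO 1. Pam, the amidating enzyme, stood at 4580, 4452 and 4338 in Fezf2 KO, against 3774, 3983 and 3761 in wild type. Its genotypes did not overlap and its replicates were tight, at 4457 ± 121 and 3839 ± 125. The log2 ratio was 0.22 (SE 0.05, limma adjusted p = 0.137) and did not pass in limma or edgeR (which called 0.689% of all genes), while DESeq2 called it (adjusted p = 0.0133).

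**Figure D4:**
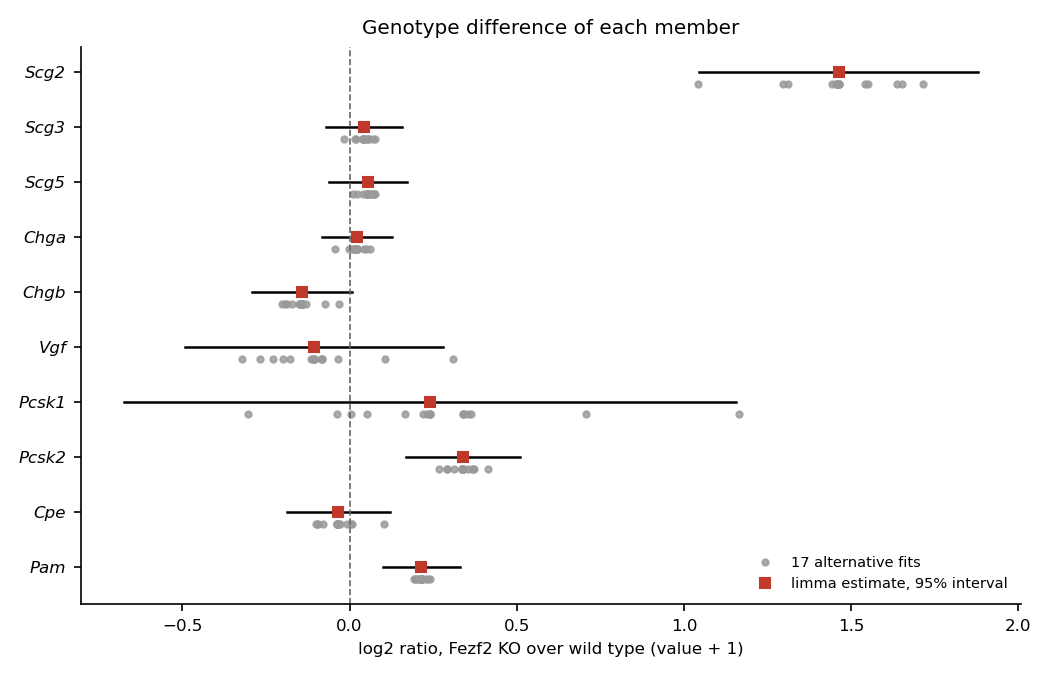
Log2 ratio of Fezf2 KO to wild type on the value plus 1 for each member, as the limma estimate (red square) with its unadjusted 95% interval (line), and the estimates from 17 alternative fits (grey dots). The dots of Scg2 run from 1.04 to 1.71, those of Pcsk2 and Pam stay above 0, and those of Scg3, Chga, Vgf, Pcsk1 and Cpe lie on both sides of 0.

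Around these members, 67 further dense core vesicle genes with 1 entry each were read in the same fit, and 64 of them passed the filter. In limma 2 rose, 2 fell and 60 did not pass, where 0.712% of all genes tested were called. The median log2 ratio was -0.03, against 0.00 over all genes. An unadjusted p under 0.05 was found in limma for 15 (23.4%), against 9.03% of all genes. The genotypes did not overlap in 17, with Fezf2 KO above in 5 and below in 12, against 14.5% of all genes in either direction. All 4 that passed were peptide cargo. Of 14 tested genes for the vesicle membrane and its formation, 0 passed by limma, edgeR or DESeq2 and 0 had an unadjusted p under 0.05 in limma, where 9.03% of all genes did. All 14 had a log2 ratio within 0.2 of 0, as 78.3% of all genes did. Ptprn2, a transmembrane phosphatase-like protein of the vesicle, averaged 11791 ± 440.5 in Fezf2 KO and 11093 ± 1278 in wild type, and Syt11, a synaptotagmin that does not bind calcium, averaged 14546 ± 483 in Fezf2 KO and 15347 ± 543 in wild type.

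Of 19 tested genes for transport, priming and release, 0 passed by limma, edgeR or DESeq2. An unadjusted p under 0.05 was found in limma for 4, where 9.03% of all genes had one. Kif1a, the motor that carries the vesicles along axons, averaged 50900 ± 3502 in Fezf2 KO and 51963 ± 1373 in wild type, and Rab3a, a vesicle GTPase, averaged 17999 ± 365 in Fezf2 KO and 17781 ± 520 in wild type. The 4 with an unadjusted p under 0.05 are named after their values were seen. The genotypes did not overlap in each of them, with Fezf2 KO above in 1 and below in 3, as in 14.5% of all genes in either direction. Cadps2, a calcium-dependent priming factor gene, stood at 659, 767 and 745 in Fezf2 KO, against 619, 577 and 535 in wild type (limma adjusted p = 0.259). Doc2b, a calcium sensor gene, stood at 1543, 2764 and 2213 in Fezf2 KO, against 3054, 2894 and 2896 in wild type (limma adjusted p = 0.448). Its log2 ratio was -0.48 with all libraries and -0.25 without Fezf2 KO 1. The vesicle GTPase gene Rab3c had a log2 ratio of -0.25 (limma adjusted p = 0.287), and that of Rab27b, another, was -0.34 (limma adjusted p = 0.456).

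Of 12 other processing enzymes tested, 0 passed by limma or edgeR, and DESeq2 called 1, Pcsk5, where it called 2.3% of all genes. An unadjusted p under 0.05 was found in limma for 1 (8.33%), close to the 9.03% of all genes. Pcsk5, a convertase gene that was named after its values were seen, stood at 292, 362 and 366 in Fezf2 KO, against 502, 564 and 449 in wild type. No library of one genotype reached the other, and the limma adjusted p was 0.117. Pcsk1n, which encodes proSAAS, the inhibitor of the Pcsk1 product, averaged 18550 ± 765 in Fezf2 KO and 17367 ± 1627 in wild type. Furin, the convertase of the trans-Golgi network, averaged 5209 ± 204 in Fezf2 KO and 5231 ± 162 in wild type.

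Cargo genes changed in both directions, 2 of 19 higher and 2 lower, where 0.404% of all genes tested were called higher and 0.308% lower. An unadjusted p under 0.05 was found in limma for 10 of the 19, against 9.03% of all genes. The genotypes did not overlap in 11, with Fezf2 KO above in 4 and below in 7, against 14.5% of all genes in either direction. The median log2 ratio of the 19 was -0.21, against 0.00 over all genes. Cck, cholecystokinin, stood at 7921, 7236 and 8621 in Fezf2 KO, against 3170, 3888 and 3060 in wild type (limma adjusted p = 0.00136). Npy, neuropeptide Y, stood at 8299, 6186 and 6591 in Fezf2 KO, against 3910, 4523 and 4597 in wild type (limma adjusted p = 0.0402, or 0.0686 with the litter block). Adcyap1, which encodes PACAP, stood at 152, 196 and 203 in Fezf2 KO, against 406, 400 and 413 in wild type (limma adjusted p = 0.00628). Trh, thyrotropin releasing hormone, stood at 59.3, 65.6 and 68.9 in Fezf2 KO, against 176, 110 and 174 in wild type (limma adjusted p = 0.0445, or 0.0578 with the litter block). Npy passed with limma without Fezf2 KO 1 or 2 but not without Fezf2 KO 3 (0.121) or wild type 1, 2 or 3 (0.117, 0.105 and 0.111), and Trh passed without wild type 2 and had an adjusted p between 0.0972 and 0.171 without each other library. DESeq2 called 2 cargo genes higher and 3 lower, where it called 2.3% of all genes in either direction. The third lower gene was Penk, the enkephalin precursor. Penk stood at 141, 305 and 172 in Fezf2 KO, against 677, 502 and 362 in wild type (DESeq2 adjusted p = 0.000871, limma 0.133). Penk and Tac1 are also among the 13 striatal markers, whose sums are lower in every Fezf2 KO library. Tac1 (log2 -1.64), Nts (-2.08), Cartpt (-1.52) and Pdyn (-1.19) lay lower in all Fezf2 KO libraries than in any of wild type. They did not pass by limma (adjusted p between 0.0937 and 0.385) or DESeq2, and Pnoc (0.31) lay higher without passing. Without Fezf2 KO 1 the log2 ratios were -1.08 (Tac1), -1.14 (Nts), -1.30 (Cartpt), -0.75 (Pdyn) and 0.45 (Pnoc). Penk, Tac1, Nts, Cartpt, Pdyn and Pnoc are named after their values were seen, and the part of striatal tissue in the lower values was not tested. In litter m1 alone and with the striatal mean as a covariate, Cck passed (limma adjusted p = 0.0465 and 0.0494), while Adcyap1 (0.117 and 0.145), Npy (0.285 and 0.262) and Trh (0.403 and 0.359) did not. Trh also missed with no filter (0.0527), with limma-voom (0.0687) and with the interneuron covariate (0.0641). The granin sum apart from Scg2 was level in the libraries in which these cargo genes differed, and a relation between cargo and granins was not tested.

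**Figure D5:**
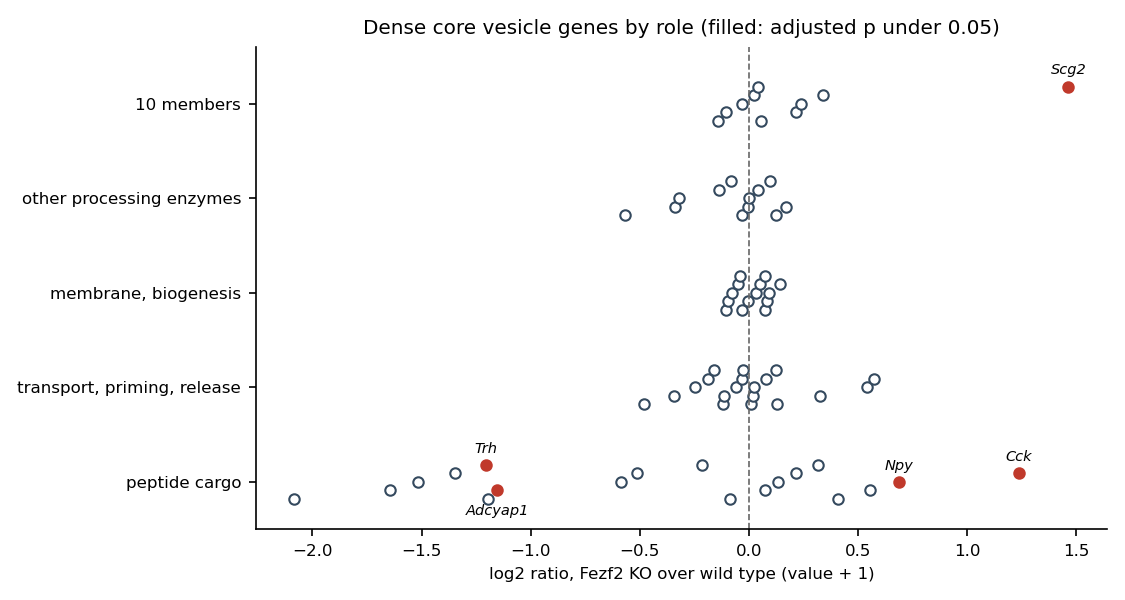
Log2 ratio of Fezf2 KO to wild type on the value plus 1 for the 10 members and for the 64 further genes by role, 1 point per gene, filled where the limma adjusted p over all genes is under 0.05. Scg2 and the cargo genes Cck, Npy, Adcyap1 and Trh are filled, and the vesicle membrane genes lie within 0.2 of 0.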

How the data were processed

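The deposited signal holds reads per gene that the authors had divided by a size factor for each library, which adjusts for depth, and rounded, with no scaling to length. Bowtie, STAR, DESeq and build mm9 are named without versions or settings, per the submitters' processing notes. Per the labels, each brain gave 1 TruSeq library. Taking the smallest step as 1 read, 100% of values were whole reads within 0.006. A count of 0 allows 3 reads, which covers counting error only. The chi-square per degree of freedom between libraries was 8.15 to 33.4, so none was a copy.

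Genes at 10 or more in at least 3 libraries were tested (17557) with limma 3.58.1 (R 4.3.3) on log2(value + 1), with a variance trend, genotype as the single term and Benjamini-Hochberg adjustment over all genes. A gene was called at an adjusted p under 0.05. On the recovered reads, edgeR 4.0.16 called 121 genes, limma 125. edgeR (TMM, RLE), limma-voom, DESeq2 1.42.0, pseudocounts of 0.5 and 5, no filter, litter as a block, litter m1 alone, striatal or interneuron means as covariates and each library left out were alternatives. Simulated data were used to test limma, limma with the litter block, edgeR with TMM, limma-voom and DESeq2, but not the other alternatives. The members and lists were chosen with earlier results of these data known. The named genes were the members, each further vesicle gene called in limma, and the 2 most abundant of each role with none called. Others were named after their values were seen, as said beside them. Of 68 further genes, Pcsk4 had more than 1 entry and was left out, and Cpz, Sytl4 and Sytl5 did not pass the filter. Merged exon lengths came from GENCODE M21 (GRCm38), matched by symbol. Litter comes from the labels. Deviations from the genotype mean, over 17557 genes that are not independent replicates, correlated between genotypes with r of -0.137 to 0.223 where litters matched (5 pairs) and -0.162 to -0.0383 where they did not (4 pairs).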

Additional observations from a re-analysis of the deposited data

How the results depend on the processing

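Over 17 alternatives the log2 ratio of Scg2 stayed between 1.04 and 1.71. Its call was lost with the striatal mean as a covariate and in litter m1 alone. In these limma fits 0 members passed, and 4 and 3 of them had an unadjusted p under 0.05, where 7.97% and 6.9% of all genes did. Nothing is read from these counts, as the members were chosen with the contrast known. The call held with the replicate block (limma adjusted p = 0.0235). With litter as a replicate block 2 members passed (Scg2 and Pcsk2), and with DESeq2 3 passed (with Pam). Leaving out any 1 library left 1 member called, Scg2. Members that had not passed changed sign, still not passing, with the striatal covariate (Scg3 -0.016, Chga -0.044, Vgf 0.31, Cpe 0.10) and the interneuron covariate (Pcsk1 -0.30). With 1 library left out the log2 ratio ran from -0.0004 to 0.048 for Chga and from -0.23 to 0.11 for Vgf, with the sign turned without Fezf2 KO 1. It ran from -0.039 (without Fezf2 KO 2) to 0.71 (without Fezf2 KO 1) for Pcsk1. For Cpe it ran from -0.10 to 0.0071, and was above 0 without wild type 2 or Fezf2 KO 1. The cause was not tested. Of the wider vesicle genes 9 passed with the interneuron covariate (2 higher and 7 lower), 2 with the striatal covariate, 2 with the replicate block and 1 in litter m1. Leaving out 1 library gave 2 to 6, with 2 without Fezf2 KO 3, wild type 1 or wild type 3. Genes called over the whole table numbered 125, against 403 with DESeq2, 225 with the interneuron covariate, 35 with the striatal covariate and 29 in litter m1. Leaving out 1 library gave 61 to 119, with 61 without Fezf2 KO 3, 77 without wild type 2 and 74 without wild type 3; fewer libraries alone can lower such counts. Pcsk1 had the lowest level of the members; depth as its limit was not tested.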
